A study of Solanum lycopersicum with 12 samples.

Results

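Tomato fruit of the slnor line were set against wild-type fruit at the breaker stage, the point at which a mature green fruit begins to colour. The 6 libraries at breaker, out of 12 in the series, were the members of this comparison: 3 from slnor, which carries a CRISPR mutation in the gene NOR in the cultivar Ailsa Craig, and 3 from wild type (WT) of the same cultivar. The other 6 libraries came from slnor and WT fruit 7 days later and entered the same statistical fit. Of 34075 genes in the count table, 20070 passed a filter on low counts and were tested. The labels give the tissue only as fruit from a controlled greenhouse, name no separate line or clone of slnor, and do not tie replicates to separate plants. The p-values therefore reflect the spread among these libraries alone, which may be technical.

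NOR encodes a NAC-domain transcription factor, and tomato mutants in it are known for fruit that ripen slowly or incompletely. In WT fruit the breaker stage marks a burst of ethylene synthesis, after which chlorophyll is broken down, lycopene accumulates, the cell wall loosens and flavour compounds are made. Ripening factors such as RIN, FUL1, TAGL1 and NOR act together upstream of many of the genes for these steps.

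Library totals at breaker ran from 51414686 to 69124795 counts in slnor and from 50714230 to 57552548 counts in WT. Levels are given in CPM, a count relative to its library total, after TMM scaling, a correction for differences in RNA composition, with SD over n = 3 libraries. The 100 most abundant genes took 19.3% to 19.9% of counts in slnor and 23.9% to 24.2% in WT. The first principal component of the 6 libraries held 64.8% of the variance and set the genotypes apart. The second held 10.6% and set WT replicate 1, at 49.2, apart from WT replicates 2 and 3, at −33.2 and −17.8, with the slnor libraries between −7.6 and 9.8. Ripening-fruit markers were counted in all 6 libraries, and each was lower in slnor. PSY1 (Solyc03g031860.3), the fruit phytoene synthase gene, had 4725, 4503 and 4908 CPM in slnor and 8834, 8594 and 8453 CPM in WT. Means in slnor and WT were 10116 and 17993 CPM for E8 (Solyc09g089580.4, name not checked) and 2419 and 5374 CPM for E4. They were 237 and 6672 CPM for PG2a and 227 and 867 CPM for ACS2. The summed level of 8 tested cuticle genes, which mark epidermis, was 287 to 302 CPM in slnor and 728 to 766 CPM in WT. Most of it in WT came from CER6, CER1 (name not checked) and CD2, at 292, 245 and 154 CPM. Of the 8 genes, 5 were lower in slnor and 3 higher. The sum of 21 photosynthesis genes, which mark green tissue, was 1633 to 1872 CPM in slnor and 2345 to 2493 CPM in WT. Of 9 listed seed genes, 5 were tested, of which 1 was higher in slnor, 1 lower and 3 not called (median log2 fold change −0.08). Their sum was 12.3 to 14.2 CPM in slnor and 72.7 to 80.4 CPM in WT. A single seed gene at 6.25 to 7.32 CPM in slnor and 67.5 to 74.7 CPM in WT made up most of the seed sum, which was 0.00146% of counts in slnor and 0.00724% in WT. All 3 marker sums thus lay below WT in every slnor library, and their part in the results below was not tested. In such bulk RNA, fewer cells of a type and less RNA per cell cannot be told apart.

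At breaker, 9900 of 20070 genes (49.3%) were called, at a Benjamini-Hochberg adjusted p under 0.05 in edgeR's quasi-likelihood test, which is the test behind every adjusted p given here. In slnor 5142 genes (25.6%) were higher and 4758 (23.7%) were lower. Among the 69 genes that averaged at least 1000 CPM, 44 were lower in slnor and 16 higher, and among the 3624 genes under 1 CPM, 193 were lower and 417 higher. Most changes were small. The median size of the log2 fold change over all genes was 0.29, and 3841 of the genes called higher and 3821 of those called lower moved by less than 2-fold. Changes of at least 2-fold were called higher in slnor for 1301 genes (6.48%) and lower for 937 genes (4.67%), and of these 163 were at least 16-fold higher and 91 at least 16-fold lower. The CPM of the slnor and WT libraries did not overlap for 11464 genes (57.1%). The share of genes called lay between 47.0% and 52.3% on each of the 12 chromosomes.

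The split depended on the scaling. When library totals alone replaced TMM, 8447 genes were called higher and 2836 lower (74.9% of calls higher, where TMM gave 51.9%). The median gene then sat at a log2 fold change of 0.20, where TMM put it at 0.02. Of the 9900 calls, 7996 were also made with library totals alone, 7978 of them in the same direction. Changes below are on the TMM scale, so each is relative to a median gene near 0.

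**Figure D1:**
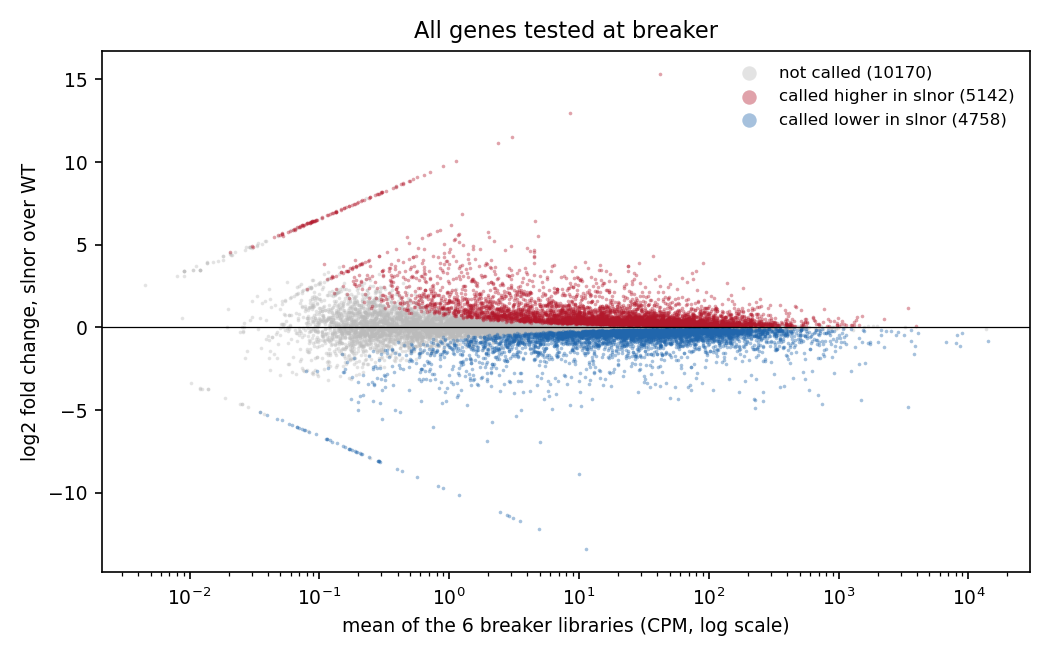
Each point is a tested gene, placed by its mean over the 6 breaker libraries (CPM, log scale) and its log2 fold change, slnor over WT, with the 5142 genes called higher in red, the 4758 called lower in blue and the rest in grey. Lower genes dominate at the right, where 44 of the 69 genes above 1000 CPM are blue; the straight lines of points at the left and far above and below are genes with no count or almost none in 1 genotype, whose fitted fold is not a size.

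The mutated gene itself is given first. NOR (Solyc10g006880.3) had 776, 792 and 896 CPM in slnor and 978, 969.5 and 955 CPM in WT. All 3 slnor libraries lay below all 3 WT libraries, by 1.18-fold (log2 fold change −0.24, SE 0.048, adjusted p = 5.63e-04). With library totals alone the log2 fold change was −0.06 (adjusted p = 0.281). The NOR transcript was thus abundant in slnor, and a count over the whole gene is no check of a small CRISPR mutation.

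Of 18 ripening regulators, 12 were lower in slnor (23.7% of all genes were) and 6 higher (25.6% of all genes). The median log2 fold change was −0.47, against 0.02 for all genes tested. Among the 12 were NOR itself and DML2, which is also on the DNA methylation and chromatin list below. FUL1 (Solyc06g069430.3), a MADS-box factor, had 239, 214 and 239 CPM in slnor and 599, 581 and 575 CPM in WT, a 2.54-fold fall (log2 fold change −1.34, SE 0.039, adjusted p = 3.46e-14). RIN (Solyc05g012020.4), the MADS-box factor whose loss blocks normal ripening, had 297, 279 and 316 CPM in slnor and 654, 606 and 608 CPM in WT, 2.09-fold lower (adjusted p = 1.43e-12). TAGL1 (Solyc07g055920.4), another MADS-box factor, had 105, 102 and 98.8 CPM in slnor and 232, 209 and 223 CPM in WT, 2.17-fold lower (adjusted p = 3.05e-13). These 3 factors therefore stood in slnor below every WT library, as the rule for naming genes required. AP2a (Solyc03g044300.3), a factor that restrains ethylene production during ripening, also fell, by 1.26 on the log2 scale (SE 0.030, adjusted p = 3.36e-15), to 219 ± 3.72 CPM in slnor, against 525 ± 4.58 CPM in WT. The fall in FUL1 differed from the genotype effect 7 days later, when its log2 fold change was −0.05 (interaction adjusted p = 9.34e-12).

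The NAC family, to which NOR belongs, moved differently. Of 12 tested members, NOR among them, 6 were higher in slnor (25.6% of all genes were) and 3 lower (23.7% of all genes). The median log2 fold change was 0.27, and with library totals alone 1 member was lower. NAC1 (Solyc04g009440.3) had 43.9, 36.6 and 38.5 CPM in slnor and 6.08, 6.69 and 6.51 CPM in WT. The slnor and WT libraries were far apart, and the fitted rise was 6.16-fold (log2 fold change 2.62, SE 0.091, adjusted p = 3.19e-13). At 7 days NAC1 was lower in slnor, at 11.6 CPM against 21.7 CPM in WT.

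Ethylene synthesis runs from S-adenosylmethionine through ACC synthase (ACS) and ACC oxidase (ACO). Of 13 tested genes of this route, 4 were higher and 5 lower in slnor (25.6% and 23.7% of all genes). The median log2 fold change was −0.07, or 0.10 with library totals alone. ACS2 (Solyc01g095080.3), an ACC synthase of ripening fruit, had 227, 207 and 247 CPM in slnor and 869, 881 and 852 CPM in WT, 3.82-fold lower (adjusted p = 7.06e-15). ACO5 (Solyc07g026650.3) went the other way, with 108, 150.1 and 97.4 CPM in slnor and 16.0, 18.2 and 18.4 CPM in WT, 6.74-fold higher (adjusted p = 6.39e-12). More abundant genes, chosen after their values were seen, did not share this rise. ACO1 averaged 3622 CPM in slnor and 4582 CPM in WT, and ACO6 893 and 1317 CPM, both called lower. ACO3, at 161 and 169 CPM, was not called, and the synthase gene ACS4 was 1.08-fold higher. ACS3 (Solyc02g091990.3) had 0.341, 0.480 and 0.959 CPM in slnor and no count in any WT library, which is at least 31.0-fold higher when 3 counts over the WT libraries stand in for 0. The later log2 fold change of ACO5 was 2.53, and its difference between the stages was not called (interaction adjusted p = 0.325).

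Ethylene is sensed by receptors that act through further signalling steps. Of 20 tested genes for these and for ethylene-responsive ripening, 6 rose and 6 fell (25.6% and 23.7% of all genes), and 8 were not called. The median of the 20 was −0.05 on the log2 scale. With library totals alone 10 rose, and the median was 0.12. E4 (Solyc03g111720.3), an ethylene-responsive ripening gene, was the most changed with a checked name. It had 2539, 2292 and 2425 CPM in slnor and 5515, 5174 and 5431 CPM in WT, 2.22-fold lower (log2 fold change −1.15, SE 0.045, adjusted p = 1.37e-12). Per length it was still among the most abundant transcripts of both genotypes, at rank 11 of all genes in slnor and rank 5 in WT by FPKM (the count scaled by gene length and library total). The receptor gene NR (Solyc09g075440.4, chosen after its values were seen) had 767, 699 and 772 CPM in slnor and 1339, 1373 and 1341 CPM in WT, 1.81-fold lower (adjusted p = 2.37e-12).

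ERF transcription factors act downstream of ethylene. Of 20 tested ERF genes, 16 were higher (25.6% of all genes were), 2 were lower and 2 were not called, and the median log2 fold change was 0.94. Of these 16, 10 rose by at least 2-fold (6.48% of all genes did). ERF.D3 (Solyc01g108240.3) had 10.6, 3.91 and 6.98 CPM in slnor and 0.309, 0.960 and 0.773 CPM in WT, 10.3-fold higher (log2 fold change 3.37, SE 0.34, adjusted p = 2.63e-07). ERF.D4 (Solyc10g050970.1) had 5.89, 2.40 and 4.39 CPM in slnor and 0.639, 0.598 and 0.358 CPM in WT, 7.93-fold higher (adjusted p = 6.36e-07). In both genes slnor replicate 2 was the lowest slnor library. It still lay above every WT library, as the rule for naming genes required. ERF.D1 (Solyc04g051360.3) averaged 3.72 ± 1.04 CPM in slnor and 0.702 ± 0.0298 CPM in WT, 5.29-fold higher (adjusted p = 1.20e-06). These 3 genes of subclass D were rare transcripts, whereas ERF.B3 (Solyc05g052030.1) was more abundant, with 23.2, 28.9 and 31.0 CPM in slnor and 6.68, 6.34 and 6.17 CPM in WT, 4.34-fold higher (log2 fold change 2.12, SE 0.11, adjusted p = 4.77e-11). The rise of ERF.B3 was larger at breaker than 7 days later, when its log2 fold change was 0.95 (interaction adjusted p = 7.34e-06). The summed CPM of the family was 1681 ± 29.7 in slnor and 1455 ± 27.5 in WT, and its most abundant member, ERF.E4 (Solyc01g065980.4), at 866 CPM in slnor and 886 CPM in WT, was not called (adjusted p = 0.359, chosen after its values were seen).

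Jasmonate is the lipid hormone of wounding and insect attack, made from linolenic acid by lipoxygenase, allene oxide synthase and allene oxide cyclase and sensed through COI1 and JAZ repressors. Of 17 tested jasmonate genes, 11 were higher in slnor (25.6% of all genes were), 3 lower (23.7% of all genes) and 3 not called. The median log2 fold change of 1.35 was the highest of the 29 lists, which were chosen with earlier results of these data known. LOXD (Solyc03g122340.3), the lipoxygenase that feeds jasmonate synthesis, had 174, 141 and 147 CPM in slnor and 30.7, 38.2 and 37.6 CPM in WT, 4.33-fold higher (log2 fold change 2.11, SE 0.084, adjusted p = 1.56e-12). AOS1 (Solyc04g079730.1), an allene oxide synthase gene, had 32.5, 23.5 and 23.9 CPM in slnor and 3.46, 3.59 and 5.30 CPM in WT, 6.45-fold higher (adjusted p = 1.47e-09). Synthesis, repressors and a wound-response gene were all among those that rose. JAZ2 (Solyc12g009220.2), a JAZ repressor gene, averaged 14.8 ± 3.08 CPM in slnor, its lowest library being at 11.2 CPM, and 2.30 ± 0.239 CPM in WT, its highest being at 2.57 CPM, 6.41-fold higher (adjusted p = 7.95e-08). LAPA1 (Solyc12g010020.3), a leucine aminopeptidase induced by wounding, had 7.81, 8.30 and 6.84 CPM in slnor and 1.22, 0.761 and 1.36 CPM in WT, 6.88-fold higher (adjusted p = 7.86e-06). For AOS1 and JAZ2 the later effect was small, with log2 fold changes of 0.29 and 0.22 that were not called, and the difference between the stages was (interaction adjusted p = 1.99e-06 and 9.26e-05). LAPA1 was at 0.115 CPM in slnor and 0.0254 CPM in WT by then.

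Genes for pathogenesis-related proteins, such as chitinases and thaumatin-like proteins, were tested next. Of 11 tested defence genes, 6 were higher in slnor (25.6% of all genes were), 2 lower (23.7% of all genes) and 3 not called, with a median log2 fold change of 1.04. CHI9 (Solyc10g055810.2), a basic chitinase gene, had 104, 183 and 117 CPM in slnor and 12.6, 14.3 and 14.8 CPM in WT, 9.66-fold higher (log2 fold change 3.27, SE 0.17, adjusted p = 3.72e-11). The spread among slnor libraries was wide, replicate 2 being the highest, but all lay far above WT. NP24 (Solyc08g080640.2), an osmotin-like protein of the thaumatin family, had 612, 678 and 663 CPM in slnor and 248, 280.1 and 279 CPM in WT, 2.42-fold higher (adjusted p = 6.05e-12), though related thaumatin-like genes may share its counts. By FPKM, NP24 ranked 41 of all genes in slnor and 248 in WT. Among the 5 tested members with a checked name, 2 rose and 2 fell. PR4 (Solyc01g097240.3) was among those that fell, at 25.2, 31.5 and 25.6 CPM in slnor and 56.3, 50.5 and 64.1 CPM in WT, 2.08-fold lower (adjusted p = 1.88e-06). None of the 3 was called 7 days later (log2 fold changes 0.20 for CHI9, −0.02 for NP24 and 0.01 for PR4), and for each the change at breaker differed from the later one (interaction adjusted p = 6.35e-09, 8.24e-10 and 1.09e-04).

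**Figure D2:**
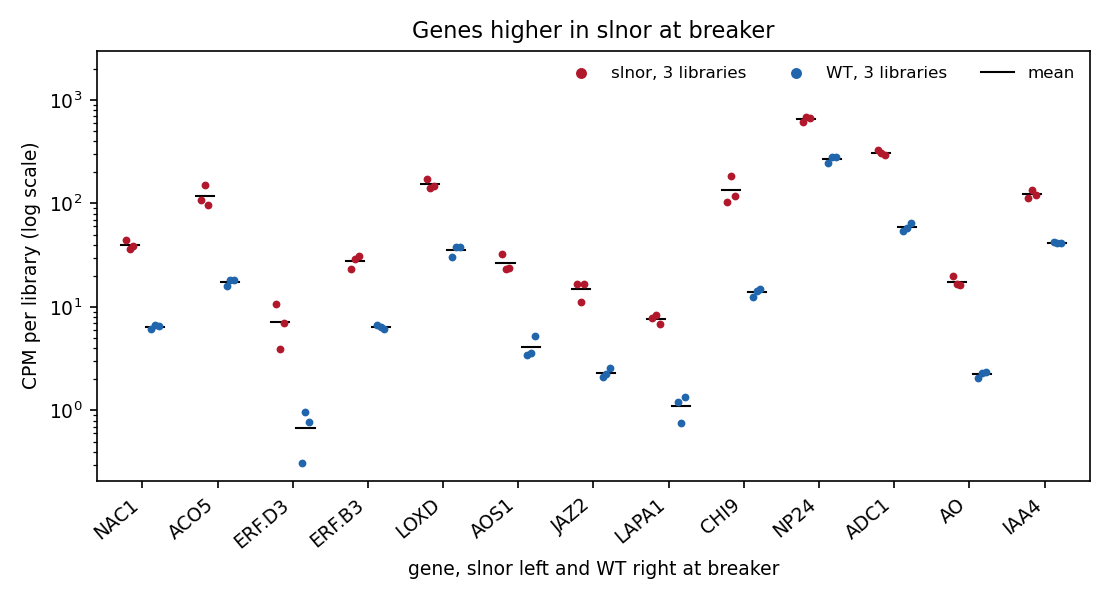
CPM per library at breaker (log scale) for 13 named genes that rose in slnor, with the 3 slnor libraries in red on the left of each pair, the 3 WT libraries in blue on the right and bars at the means. The rule for naming these genes required that slnor and WT libraries not overlap, as held for 57.1% of all genes tested. The lowest slnor library thus lies above the highest WT library for every gene shown. The widest relative spread among slnor libraries is that of ERF.D3, from 3.91 to 10.6 CPM.

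Genes that loosen the fruit cell wall included abundant transcripts with large falls. Of 20 tested genes, 14 were lower and 6 higher in slnor (23.7% and 25.6% of all genes). By at least 2-fold, 7 fell (4.67% of all genes did) and 2 rose (6.48% of all genes did). PG2a (Solyc10g080210.2), the fruit polygalacturonase that cuts pectin, had 226, 234 and 249.9 CPM in slnor and 7000.1, 6629 and 6387 CPM in WT, 28.2-fold lower (adjusted p = 7.57e-21). Its place by FPKM was rank 780 of all genes in slnor and rank 8 in WT. MAN4a (Solyc01g008710.5.1), an endo-mannanase, had 61.7, 44.4 and 66.4 CPM in slnor and 1506, 1417 and 1405 CPM in WT, 25.1-fold lower (adjusted p = 2.33e-15). TBG4 (Solyc12g008840.2), a beta-galactosidase, had 22.5, 23.8 and 22.4 CPM in slnor and 499.5, 531 and 471 CPM in WT, 21.9-fold lower (adjusted p = 4.64e-19). CEL2 (Solyc09g010210.3), which cuts glucan chains, had 55.2, 47.2 and 59.6 CPM in slnor and 667, 637 and 659 CPM in WT, 12.1-fold lower (log2 fold change −3.60, SE 0.061, adjusted p = 6.70e-17). For each of the 4 the slnor libraries lay more than 10-fold below the WT ones. All 4 stayed lower 7 days later, with smaller log2 fold changes of −3.09 for PG2a, −1.16 for MAN4a, −2.71 for TBG4 and −2.96 for CEL2 (interaction adjusted p = 1.13e-13, 4.23e-12, 3.41e-12 and 5.67e-06). The list summed to 6984 ± 220.2 CPM in slnor and 17099 ± 473 CPM in WT, of which PG2a held 237 and 6672 CPM on average. Other abundant members, chosen after their values were seen, fell less. The falls were 1.16-fold for PL, 1.23-fold for PME1 and 1.26-fold for EXP1, at 2697, 3138 and 1181 CPM in WT.

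Of 14 tested genes that make plastid isoprenoid precursors and lycopene, 13 were lower in slnor (23.7% of all genes were). None was higher (25.6% of all genes were), 1 was not called, and the median log2 fold change was −0.32. Most of these falls were modest, and only 2 with checked names exceeded 2-fold. GGPS2 (Solyc04g079960.1), a geranylgeranyl diphosphate synthase, had 24.4, 21.1 and 24.1 CPM in slnor and 125, 115 and 128 CPM in WT, 5.29-fold lower (log2 fold change −2.40, SE 0.062, adjusted p = 9.57e-15). ZISO (Solyc12g098710.2), the zeta-carotene isomerase, had 615, 584 and 649.9 CPM in slnor and 1432, 1408 and 1417 CPM in WT, 2.30-fold lower (adjusted p = 1.17e-13). Both groups were tight and far apart. Beyond lycopene, among 11 tested genes of xanthophyll synthesis and carotenoid cleavage, 6 were lower and 2 higher (23.7% and 25.6% of all genes). The median of this list was −0.38. VDE (Solyc04g050930.3), violaxanthin de-epoxidase, fell to 15.6 ± 1.49 CPM in slnor, against 41.8 ± 0.524 CPM in WT (adjusted p = 6.76e-11). The beta-carotene hydroxylase genes BCH2 (Solyc03g007960.3) and BCH1 (Solyc06g036260.3) fell by 1.24 and 1.03 on the log2 scale (adjusted p = 2.40e-11 and 5.72e-11). Of 9 tested tocopherol genes, none of which has a checked name, 5 fell and none rose (23.7% and 25.6% of all genes). The median was −0.25, and with library totals alone 3 fell.

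Flavonoid genes had the lowest median of the 29 lists, a ranking within lists chosen with earlier results of these data known. Of 12 tested, 9 were lower in slnor (23.7% of all genes were) and 1 higher, 8 fell by at least 2-fold (4.67% of all genes did), and the median log2 fold change was −1.83. MYB12 (Solyc01g079620.4), the MYB factor that drives flavonol genes in fruit skin, had 11.8, 10.5 and 12.5 CPM in slnor and 81.1, 75.4 and 70.7 CPM in WT, 6.53-fold lower (log2 fold change −2.71, SE 0.084, adjusted p = 7.57e-14). The enzymes that open the flavonoid route were low in the same libraries. CHS1 (Solyc09g091510.3) had 114, 97.0 and 136 CPM in slnor and 983, 1033 and 968 CPM in WT, and CHS2 (Solyc05g053550.3) had 102, 80.3 and 105 CPM in slnor and 812, 815 and 746 CPM in WT. These chalcone synthase copies are close in sequence, so their counts are uncertain as single genes, and the fitted falls were 8.58-fold for CHS1 and 8.28-fold for CHS2 (adjusted p = 1.48e-14 and 7.63e-15). F3H (Solyc02g083860.3), flavanone 3-hydroxylase, had 155, 149 and 167 CPM in slnor and 702, 721 and 659.5 CPM in WT, 4.42-fold lower (adjusted p = 5.08e-15). All 4 genes were above WT 7 days later, with log2 fold changes of 1.81 for MYB12, 0.75 for CHS1, 0.88 for CHS2 and 1.54 for F3H. The summed cuticle markers given above were lower in slnor too, though 3 of the 8 genes were higher. The part of these markers in the flavonoid result was not tested.

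The cuticle list moved both ways. Of 8 tested genes, 5 were lower and 3 higher (23.7% and 25.6% of all genes). CER6 (Solyc02g085870.3), which elongates fatty acids for wax and was the most abundant with a checked name, had 69.0, 70.3 and 74.3 CPM in slnor and 285, 299 and 292 CPM in WT, 4.10-fold lower (adjusted p = 1.89e-16). CD1 (Solyc11g006250.2), cutin synthase, had 2.14, 2.66 and 2.96 CPM in slnor and 0.784, 0.779 and 0.660 CPM in WT, 3.49-fold higher (adjusted p = 4.80e-05). GPAT6 (Solyc09g014350.3), which makes cutin precursors, averaged 1.08 ± 0.200 CPM in slnor and 0.377 ± 0.195 CPM in WT, and TTS2 (Solyc12g006520.2), a triterpenoid synthase, 2.77 ± 0.0594 CPM in slnor and 1.12 ± 0.421 CPM in WT (adjusted p = 0.00913 and 0.00473). Those that rose were thus rare transcripts at breaker in both genotypes.

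**Figure D3:**
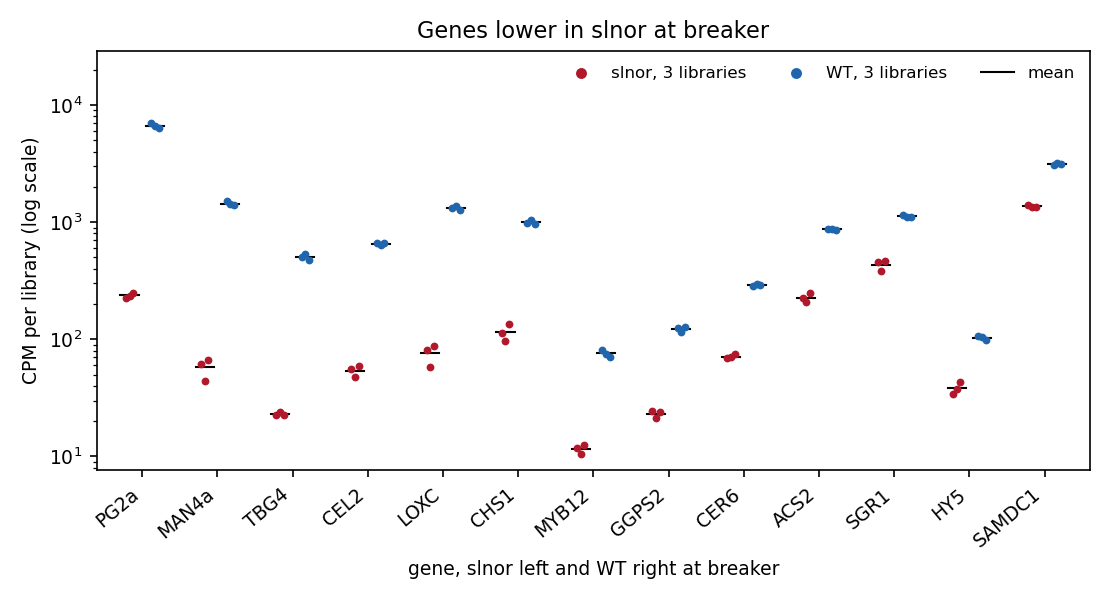
CPM per library at breaker (log scale) for 13 named genes that fell in slnor, with the 3 slnor libraries in red on the left of each pair, the 3 WT libraries in blue on the right and bars at the means. No slnor library reaches a WT library for any gene shown, which the rule for naming these genes required. Over all genes tested, 57.1% did not overlap. The gap is widest for PG2a, at 226 to 249.9 CPM in slnor and 6387 to 7000.1 CPM in WT.

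Genes for flavour volatiles were mostly lower. Of 13 tested, 9 fell (23.7% of all genes did) and 3 rose (25.6% of all genes), and the median log2 fold change was −0.44. LOXC (Solyc01g006540.4), the lipoxygenase behind short-chain green-note volatiles, had 81.6, 58.5 and 87.5 CPM in slnor and 1315, 1379 and 1276 CPM in WT, a large fall (log2 fold change −4.12, SE 0.12, adjusted p = 2.95e-14). LOXD, the jasmonate lipoxygenase that is also on this list, rose as given above, so that WT held more LOXC than LOXD per length (404 and 10.3 FPKM) and slnor less (26.1 and 50.6 FPKM). AADC1A (Solyc08g068680.4), an amino acid decarboxylase of the phenylethanol route, had 22.0, 17.0 and 20.1 CPM in slnor and 3.67, 5.13 and 5.49 CPM in WT, 4.12-fold higher (adjusted p = 7.33e-09). Its later log2 fold change was 0.36 and not called (interaction adjusted p = 1.02e-05).

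Genes of both chlorophyll breakdown and chlorophyll synthesis were among those that fell. Of 6 tested breakdown genes, 3 fell and 1 rose (23.7% and 25.6% of all genes), or 3 rose with library totals alone. The median log2 fold change of the list was −0.13, or 0.05 in that scaling. The stay-green gene SGR1 (Solyc08g080090.3), whose product starts chlorophyll loss, had 456, 382 and 466 CPM in slnor and 1150.5, 1116 and 1100.3 CPM in WT, 2.58-fold lower (adjusted p = 4.38e-12). The log2 fold change was −1.37 at breaker and −1.28 later, and the difference between the stages was not called (interaction adjusted p = 0.413). Of 6 tested synthesis genes, 5 fell and none rose (23.7% and 25.6% of all genes), with a median of −0.67. POR2 (Solyc07g054210.3), a protochlorophyllide oxidoreductase, had 108, 95.1 and 109.9 CPM in slnor and 144, 130.4 and 149 CPM in WT, 1.35-fold lower (adjusted p = 4.18e-06).

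Photosynthesis genes code for light-harvesting proteins, photosystem subunits and enzymes of carbon fixation. Of 21 tested, 16 were lower in slnor (23.7% of all genes were), 3 higher and 2 not called, with a median log2 fold change of −1.06. CAB10B (Solyc01g105030.3), a chlorophyll a/b-binding protein gene, had 15.6, 14.4 and 13.0 CPM in slnor and 47.7, 44.2 and 42.9 CPM in WT, 3.14-fold lower (adjusted p = 1.37e-11). CAB3C (Solyc03g005780.3) had 0.197, 0.368 and 0 CPM in slnor and 1.57, 2.52 and 1.81 CPM in WT (adjusted p = 0.00325). Members of the CAB1 and CAB3 clusters are near-identical, and their counts are uncertain as single genes. CAB1D (Solyc02g070980.1) had 0, 0 and 0.0405 CPM in slnor and 0.186, 0.399 and 0.434 CPM in WT (adjusted p = 0.0147), and the call was lost without slnor replicate 1 (0.0633), slnor replicate 2 (0.0667) or WT replicate 3 (0.0506). CAB1B (Solyc02g070950.1) averaged 0.208 ± 0.0850 CPM in slnor and 0.793 ± 0.259 CPM in WT (adjusted p = 0.0443), and it was lost on leaving out any library other than WT replicate 1 (0.0563 to 0.128). The abundant RBCS2A (Solyc03g034220.3), a Rubisco small subunit gene, moved against the antenna genes, with 306, 275 and 272 CPM in slnor and 227, 214 and 224 CPM in WT, 1.28-fold higher (adjusted p = 5.96e-06).

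Of 10 tested light signalling genes, 7 were lower and 1 higher (23.7% and 25.6% of all genes). The median was −0.25, while library totals alone gave 3 lower and 2 higher. HY5 (Solyc08g061130.3), the bZIP factor that promotes light responses and pigment genes, had 34.4, 37.9 and 43.4 CPM in slnor and 106, 105 and 99.2 CPM in WT, 2.68-fold lower (log2 fold change −1.42, SE 0.066, adjusted p = 1.30e-11). The later fall of HY5 was smaller, −0.23 (interaction adjusted p = 2.99e-08).

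Abscisic acid, auxin and gibberellin genes showed no common direction. Of these lists 59.1%, 55.0% and 54.5% were called in turn, near the 49.3% of all genes. Of 22 tested abscisic acid genes, 6 rose and 7 fell (25.6% and 23.7% of all genes). The median was −0.07 on the log2 scale, or 0.11 with library totals alone. CYP707A2 (Solyc08g005610.3), which inactivates abscisic acid, had 304, 365 and 318 CPM in slnor and 139.5, 136 and 136 CPM in WT, 2.40-fold higher (adjusted p = 1.74e-12). Of 20 tested auxin genes, 6 rose and 5 fell (25.6% and 23.7% of all genes), with a median of 0.14. IAA4 (Solyc06g053840.3), an Aux/IAA repressor, had 113, 134 and 122 CPM in slnor and 42.6, 41.6 and 41.5 CPM in WT, 2.93-fold higher (log2 fold change 1.55, SE 0.059, adjusted p = 9.27e-13). GH3.2 (Solyc01g107390.4), of the family that conjugates auxin to amino acids, had 21.8, 17.0 and 21.0 CPM in slnor and 54.6, 56.8 and 56.4 CPM in WT, 2.81-fold lower (adjusted p = 2.15e-11). IAA4 averaged 61.8 CPM in slnor and 63.8 CPM in WT 7 days later and was not called then, and the stages differed (interaction adjusted p = 1.18e-10). Of 11 tested gibberellin genes, 2 rose and 4 fell (25.6% and 23.7% of all genes), with a median of 0.21. With library totals alone 2 fell. GA2ox5 (Solyc07g061730.3), a gibberellin-inactivating 2-oxidase, had 7.61, 7.66 and 4.51 CPM in slnor and 0.907, 0.489 and 1.11 CPM in WT, 7.88-fold higher (adjusted p = 1.15e-05).

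Of 12 tested genes for GABA and polyamines, 4 rose and 4 fell (25.6% and 23.7% of all genes). The median was 0.20, and with library totals alone 7 rose and 2 fell. ADC1 (Solyc10g054440.3), arginine decarboxylase at the entry to putrescine, had 325, 309.7 and 293 CPM in slnor and 53.8, 58.5 and 64.2 CPM in WT, 5.25-fold higher (log2 fold change 2.39, SE 0.075, adjusted p = 9.14e-14). SAMDC1 (Solyc05g010420.2), which supplies the aminopropyl groups of spermidine and spermine, had 1414, 1357 and 1356 CPM in slnor and 3054, 3202 and 3115 CPM in WT, 2.27-fold lower (log2 fold change −1.18, SE 0.033, adjusted p = 2.19e-14). Both effects had the same sign but were smaller 7 days later, with log2 fold changes of 1.20 for ADC1 and −0.36 for SAMDC1 (interaction adjusted p = 7.30e-08 and 3.46e-10). GAD2 (Solyc11g011920.2), a glutamate decarboxylase that makes GABA, had 50.1, 60.2 and 43.4 CPM in slnor and 21.4, 26.5 and 26.6 CPM in WT, 2.06-fold higher (adjusted p = 3.34e-07).

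Of 8 tested ascorbate genes, 3 rose and 4 fell (25.6% and 23.7% of all genes). The median was −0.05 on the log2 scale, or 0.13 with library totals alone. AO (Solyc04g054690.3), the ascorbate oxidase of the cell wall, had 19.7, 16.6 and 16.4 CPM in slnor and 2.04, 2.32 and 2.34 CPM in WT, 7.84-fold higher (log2 fold change 2.97, SE 0.20, adjusted p = 1.62e-09). GME1 (Solyc01g097340.3), an epimerase of ascorbate synthesis, had 20.2, 18.9 and 21.0 CPM in slnor and 44.7, 45.3 and 47.1 CPM in WT, 2.28-fold lower (adjusted p = 1.20e-11). The oxidase and the epimerase thus moved in opposite directions. Neither overlapped between the genotypes, which the rule for naming genes required. Of 21 tested genes for sugar, starch and acids, 6 rose and 6 fell (25.6% and 23.7% of all genes). The share called was 57.1%, near the 49.3% of all genes, and the median was 0.09. With library totals alone 12 rose. SUS1 (Solyc12g009300.3), a sucrose synthase, had 52.3, 63.9 and 54.1 CPM in slnor and 27.3, 30.9 and 25.6 CPM in WT, 2.03-fold higher (adjusted p = 1.17e-08). AGPL1 (Solyc01g109790.3), a starch-pathway subunit, averaged 1.80 ± 0.258 CPM in slnor and 0.828 ± 0.160 CPM in WT (adjusted p = 0.0141), a call lost without slnor replicate 2 (0.0536) or WT replicate 3 (0.0590). Of 10 tested genes for steroidal glycoalkaloids, the bitter compounds of green tomato, 2 rose and 1 fell (25.6% and 23.7% of all genes). The other 7 were not called (median 0.08), and with library totals alone 4 rose and none fell. CAS (Solyc04g070980.4), cycloartenol synthase at the sterol branch point, had 32.6, 33.5 and 32.7 CPM in slnor and 14.3, 17.8 and 16.5 CPM in WT, 2.03-fold higher (adjusted p = 2.84e-09).

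Heat-shock proteins are chaperones that protect other proteins from misfolding. Of 16 tested genes, 11 fell (23.7% of all genes did), 1 rose, or 2 with library totals alone, and 4 were not called, and the median log2 fold change was −0.54. By at least 2-fold, 7 fell (4.67% of all genes did). Among the 7 tested members with a checked name, 3 fell and 1 rose. HSP17.4CII (Solyc08g062340.3), a class II small heat-shock protein gene, had 7.16, 6.12 and 9.13 CPM in slnor and 29.5, 25.8 and 24.6 CPM in WT, 3.55-fold lower (log2 fold change −1.83, SE 0.11, adjusted p = 3.51e-10). HSP17.7 (Solyc06g076540.1) had 3.23, 2.61 and 3.16 CPM in slnor and 7.71, 4.84 and 6.09 CPM in WT, 2.06-fold lower (adjusted p = 3.36e-05). Small heat-shock genes have close relatives, so these counts are uncertain as single genes. Both falls were larger 7 days later, with log2 fold changes of −2.51 for HSP17.4CII and −4.89 for HSP17.7 (interaction adjusted p = 0.00175 and 3.31e-10). The list summed to 4238, 3923 and 4637 CPM in slnor and 6651, 6356 and 6465 CPM in WT.

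Of 13 tested genes for DNA methylation and chromatin, 7 rose and 1 fell (25.6% and 23.7% of all genes). With library totals alone 11 rose. The TMM median was 0.27 on the log2 scale, and no change reached 2-fold. The one that fell was DML2 (Solyc10g083630.2), the DNA demethylase that removes methylation from ripening promoters. It had 1228, 1225 and 1232 CPM in slnor and 2157, 2312 and 2264 CPM in WT, 1.83-fold lower (log2 fold change −0.87, SE 0.030, adjusted p = 2.38e-13). It was the most abundant of the list, whose summed level was lower in slnor, 1749 ± 5.19 CPM against 2685 ± 81.6 CPM in WT. Most of both sums was DML2 itself, at 1229 CPM in slnor and 2244 CPM in WT. At 7 days DML2 did not pass the test (log2 fold change −0.06, adjusted p = 0.0859), and the stages differed (interaction adjusted p = 1.17e-10).

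Genes used as controls in quantitative PCR moved little. Of 14 tested, 5 were called higher and 3 lower (25.6% and 23.7% of all genes). With library totals alone 9 were higher and none lower. The TMM median log2 fold change of the 14 was 0.00, or −0.05 when the libraries were scaled to this list itself, and none reached 2-fold. The actin gene of highest level with a checked name (Solyc03g078400.3) had 1052, 1050.2 and 1027 CPM in slnor and 971, 958 and 1002 CPM in WT, 1.07-fold higher (adjusted p = 0.00970), and the call was lost without slnor replicate 1 (0.0721).

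**Figure D4:**
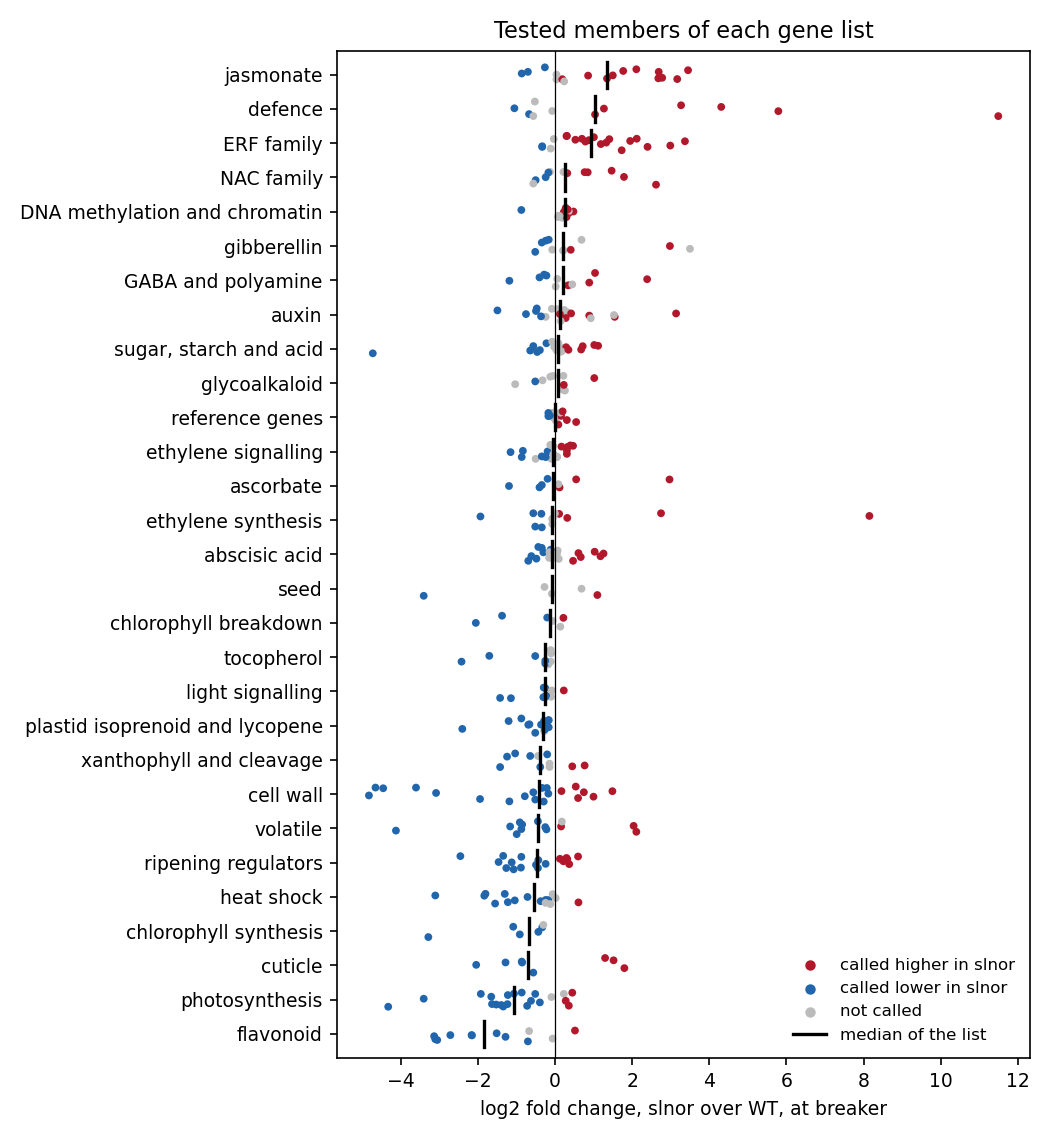
Each row is a gene list and each point a tested member, placed by its log2 fold change, slnor over WT, with members called higher in red, called lower in blue and not called in grey, and a black bar at the median. Lists are ordered by median, from 1.35 for jasmonate at the top to −1.83 for flavonoid at the bottom, and the points furthest to the right belong to genes with no count in WT, whose fitted fold is not a size.

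**Figure D5:**
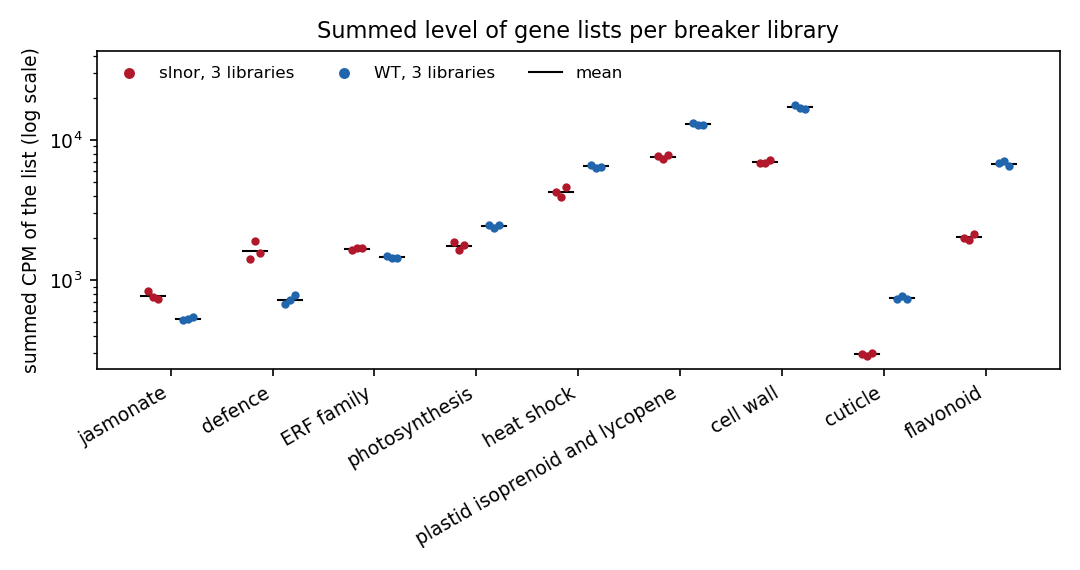
Summed CPM of the tested members of 9 gene lists in each breaker library (log scale), with slnor libraries in red on the left, WT libraries in blue on the right and bars at the means. Jasmonate, defence and ERF sums lie above WT in every slnor library, and the other 6 sums lie below it, with flavonoid at 1946 to 2119 CPM in slnor and 6477 to 7049 CPM in WT.

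Outside the lists, the genes with the largest gain and loss of CPM are given by identifier, since no table used here names them. Solyc07g064160.3 had 4533, 4700.3 and 4900.3 CPM in slnor and 2019, 2132 and 2120.3 CPM in WT, 2.25-fold higher (adjusted p = 3.87e-14), and by FPKM it was rank 8 of all genes in slnor and rank 45 in WT. Solyc01g109660.2 averaged 2659 ± 84.7 CPM in slnor and 1838 ± 73.4 CPM in WT, 1.45-fold higher (adjusted p = 5.10e-09). On the losing side, Solyc09g092380.3 had 5319.9, 5238 and 5699.6 CPM in slnor and 12033, 11702 and 11830.2 CPM in WT, 2.19-fold lower (adjusted p = 1.29e-14). Solyc07g049135.1 averaged 5547 ± 146 CPM in slnor and 10641 ± 511 CPM in WT, 1.92-fold lower (adjusted p = 2.66e-13). Even so it was rank 2 by FPKM in slnor and rank 1 in WT.

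Some transcripts were counted in 1 genotype only at breaker. A set of 158 genes had a count in all 3 slnor libraries and none in WT, and 77 had a count in all 3 WT libraries and none in slnor. Most were rare: 79 of the 158 and 37 of the 77 passed the low-count filter, and 9 and 10 of them averaged at least 1 CPM. The highest stood at 84.7 ± 19.7 CPM in slnor, at least 4425-fold above WT when 3 counts over the WT libraries stand in for 0, and at 22.5 CPM in WT, at least 1443-fold above slnor by the same floor. That slnor-only gene was counted in both genotypes 7 days later, at 38.7 CPM in slnor and 8.93 CPM in WT. Of the 10 WT-only genes of at least 1 CPM, 6 had no count in slnor 7 days later either. At that stage WT had no count for 2 of those 6, 0.0211 to 0.0433 CPM for 3 and 1.33 CPM for 1. Such bounds cover counting error only.

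The breaker effect was compared with the effect 7 days later by the interaction term of the same fit. The 2 effects differed for 8474 of 20070 genes (42.2%). Of the 9900 genes called at breaker, 7013 were also called 7 days later, 5443 in the same direction and 1570 in the opposite one, and 2887 were called at breaker only. Of the 1570, 853 were lower in slnor at breaker and higher later, and 717 were higher at breaker and lower later.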

How the data were processed

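For the 12 libraries the authors deposited raw counts by gene and, per library, a table whose unit is not named. It was inferred to be FPKM, because counts divided by these deposited FPKM values and by the library total gave 1 length per gene within 1% for all 7798 genes with at least 1000 counts. The tools HISAT, UMI-tools, StringTie and also edgeR appear, without version or role, in the submitters' processing notes. Not given in the sources used here are the genome build, the annotation, the strand setting and whether a count is a read or a collapsed molecule, so overlapping genes may share counts.

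Counts were tested as deposited in R 4.3.3 with edgeR 4.0.16 (glmQLFit, glmQLFTest), TMM scaling, filterByExpr over the 4 groups, and all 12 libraries in 1 fit without covariates. The contrast was slnor minus WT at breaker, adjusted by the Benjamini-Hochberg method over 20070 genes, which hold 99.988% of counts. SE is |log2 fold change| over the square root of F. The common biological coefficient of variation was 7.39%. FPKM served only for levels per length. No replicate pair was a duplicate: chi-square over degrees of freedom was 5.52 to 14.18, above sampling noise in each.

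The members and the 29 gene lists were chosen with earlier results of these data known. The files do not pair identifiers with names. Of 435 pairs from published nomenclature, 426 are in the count table, and 295 are checked, meaning that RefSeq's gene table for assembly SLM_r2.1 has that name, or for some pairs another name of the gene matched to it by hand, as a symbol or synonym on the same chromosome (the 2 digits after Solyc in an identifier) at a matching rank within 5% of the chromosome's genes. Named are NOR, up to 4 checked members per list with the largest non-overlapping change of at least 2-fold, otherwise the most abundant checked member, the most abundant checked member of the marker and reference lists, and 4 identifiers outside the lists. DESeq2 1.42.0 was run as an alternative.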

Additional observations from a re-analysis of the deposited data

Results flagged for a closer look

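Of the genes named at breaker, 10 had a genotype effect of the opposite sign 7 days later, called at both stages and with a called interaction in edgeR's quasi-likelihood test. The value given for each is the breaker log2 fold change minus the later one. The 4 flavonoid genes were lower in slnor than in WT at breaker and higher than in WT later. The differences were −3.85 for CHS1 (interaction adjusted p = 1.17e-13), −3.93 for CHS2 (3.59e-14), −4.51 for MYB12 (3.33e-14) and −3.68 for F3H (2.67e-15). Between the stages WT means went from 995 to 85.7 CPM for CHS1 and from 791 to 162 CPM for CHS2. For MYB12 they went from 75.7 to 7.33 CPM and for F3H from 694 to 49.0 CPM. In slnor CHS1 went from 116 to 144 CPM and CHS2 from 95.5 to 297 CPM. MYB12 went from 11.6 to 25.7 CPM in slnor and F3H from 157 to 142 CPM. CER6, the wax gene, differed by −2.87 (2.67e-15), with 107 CPM in slnor and 59.7 CPM in WT later. CAB10B differed by −2.62 (3.78e-11), VDE by −1.89 (4.66e-10) and NOR itself by −0.46 (3.38e-05).

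In the other direction, NAC1 was higher in slnor at breaker and lower later, a difference of 3.53 (1.06e-12). GA2ox5 differed by 8.44 (4.59e-04), but it had no count in slnor and averaged 0.0929 CPM in WT 7 days later, so the size of its difference depends on the fit's prior count and only its sign is described.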

How the results depend on the processing

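Without TMM (library totals alone), 8447 genes were called higher and 2836 lower. List counts that moved most with it were NAC lower 1, ethylene signalling higher 10, tocopherol lower 3, glycoalkaloid higher 4 and lower 0, sugar higher 12, GABA and polyamine higher 7 and lower 2, chlorophyll breakdown higher 3, light signalling higher 2 and lower 3, gibberellin lower 2, heat shock higher 2, DNA methylation higher 11, and reference genes higher 9 and lower 0. Smaller shifts are not listed, so counts not given here may also have moved. List medians that changed sign with library totals alone were ethylene synthesis 0.10, ethylene signalling 0.12, ascorbate 0.13, chlorophyll breakdown 0.05 and abscisic acid 0.11. Scaling to the reference genes called 4196 higher and 5516 lower (43.2% of calls higher), with 1 glycoalkaloid gene higher and a reference median of −0.05. Over checked names only, shares moved for xanthophyll higher 1 of 10, cell wall higher 2 of 16, glycoalkaloid lower 0 of 8, sugar lower 3 of 17, chlorophyll breakdown higher 0 and lower 1 of 1, chlorophyll synthesis lower 1 of 2, photosynthesis higher 1 of 17, jasmonate lower 3 of 11, defence lower 2 of 5, heat shock higher 1 and lower 3 of 7, and reference lower 2 of 6. The cause of these shifts was not tested. DESeq2's test called 5047 higher and 4891 lower, the 6 breaker libraries alone 4787 each way, no filter 5046 and 4707, and the stricter filter (at least 1 CPM in 3 libraries) 4999 and 4735.

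Leaving out each library in turn gave 4448 to 4810 genes higher and 4376 to 4638 lower, and 1191 to 1334 and 901 to 955 of at least 2-fold. Without WT replicate 1, which stood apart, 4743 were higher and 4399 lower. No gene named by rule changed direction under any alternative run that tested it. With the stricter filter 65 of the 68 were tested, and with the breaker libraries alone not all were. Calls were lost without 1 library for AGPL1, CAB1D, CAB1B and the actin gene, as given with each, for CAB1D with no filter (adjusted p = 0.0525), for CAB1B (0.0578) and NOR with library totals alone, and for the actin gene with reference scaling (0.290) and with the breaker libraries alone (0.0596). Same-numbered slnor and WT libraries did not deviate together (r = 0.016, 0.075 and −0.104), so the numbers are not taken as pairs, and a fit with replicate number as a block called 4929 higher and 4575 lower (CAB1B adjusted p = 0.0964).

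Calls rest on 3 libraries per group. Genes under 1 CPM were called in 16.8% of cases, against 87.0% of those above 1000 CPM, so a missing call at low depth does not show that levels were equal.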
